A study of Mus musculus with 20 samples.

Results

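The opioid system of the adult mouse forebrain was read here as 7 genes: the peptide precursors Penk, Pdyn and Pnoc and the receptors Oprm1, Oprd1, Oprk1 and Oprl1. They were taken by symbol from the 24421 genes counted in each of 20 RNA-seq libraries. Neocortex and hippocampus were sampled in cTKO mice and in their control littermates, aged 3 months, and 5 libraries were made for each region and genotype. The cTKO mice carried floxed APP, APLP1 and APLP2 alleles together with a Camk2a-Cre transgene, which deletes all 3 genes after birth in excitatory neurons of the forebrain and leaves them intact in interneurons and glia. The controls, labelled wild type, were littermates that the study's methods describe as carrying the same floxed alleles without Cre, on a mixed C57BL/6J and 129 background and of both sexes. The comparisons asked whether an opioid gene had another transcript level where the APP family was lost, or in the other region.

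Opioid peptides are cut out of larger precursor proteins. Penk encodes proenkephalin, the source of Met- and Leu-enkephalin. Pdyn encodes prodynorphin, the source of the dynorphins, and Pnoc encodes the precursor of nociceptin. The enkephalins act mainly on the delta (Oprd1) and mu (Oprm1) receptors, dynorphins on the kappa receptor (Oprk1) and nociceptin on its own receptor (Oprl1). All 4 receptors couple to inhibitory G proteins, which lower cyclic AMP, open potassium channels and close presynaptic calcium channels. In the hippocampus, dynorphin is best known from the mossy fibres of dentate granule cells, and enkephalin from the perforant path, mossy fibres and some interneurons. Many receptors sit on interneurons, so that opioids dampen inhibition there.

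The codons show which peptide cores the counted transcripts encode, and they are printed for that reason. They were read from the coding sequences of Penk-201, Pdyn-201 and Pnoc-201 in GENCODE M21 on GRCm38, the build also called mm10. Capitals mark the 15 bases that encode the enkephalin core, or the start of nociceptin, and the 6 lower-case bases on each side are its flanks. All run 5′ to 3′ on the minus strand of the chromosome.
Penk copy 1, Met-enkephalin, chr4:4134334-4134348: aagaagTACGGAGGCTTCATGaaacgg
Penk copy 2, Met-enkephalin, chr4:4134313-4134327: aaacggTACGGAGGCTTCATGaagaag
Penk copy 3, Met-enkephalin, chr4:4134226-4134240: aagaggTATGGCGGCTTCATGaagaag
Penk copy 4, Met-enkephalin, chr4:4134073-4134087: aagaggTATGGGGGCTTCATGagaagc
Penk copy 5, Met-enkephalin, chr4:4134001-4134015: aagcgcTACGGGGGCTTCATGagaagg
Penk copy 6, Leu-enkephalin, chr4:4133941-4133955: aagaggTATGGGGGCTTCCTGaagcgc
Penk copy 7, Met-enkephalin, chr4:4133848-4133862: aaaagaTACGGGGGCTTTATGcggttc
Pdyn copy 1, Leu-enkephalin core, chr2:129688238-129688252: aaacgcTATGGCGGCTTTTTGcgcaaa
Pdyn copy 2, Leu-enkephalin core, chr2:129688130-129688144: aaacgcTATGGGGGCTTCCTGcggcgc
Pdyn copy 3, Leu-enkephalin core, chr2:129688073-129688087: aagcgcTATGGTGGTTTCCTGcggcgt
Pnoc, start of nociceptin, chr14:65404878-65404892: aaaaggTTTGGGGGCTTCACCggggcc

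The 268 codons of Penk held 7 enkephalin cores, 6 ending in the methionine codon and 1 ending in a leucine codon. The 248 codons of Pdyn held 3 cores, all of the leucine kind, and the 187 codons of Pnoc held 1 nociceptin start. A pair of basic codons, a common signal for prohormone convertases, stood directly before all 7 Penk cores and directly after 5 of them, but not after copies 4 and 7. It stood on both sides of all 3 Pdyn cores. The Penk cores all lay in exon 2 of 2, the Pdyn cores in exon 4 of 4 and the nociceptin start in exon 3 of 4. The transcript levels below therefore carry different numbers of peptide cores. Which cores are released as free enkephalin, and which stay within longer peptides, cannot be read from these codons, and peptides were not measured.

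Library totals ran from 12169474 to 24842764 counts in the neocortex and from 19552353 to 25331954 in the hippocampus. Levels are CPM values, that is counts scaled to a common library size with TMM factors, and 3 counts correspond to 0.118 to 0.247 CPM per library. The targeted genes matched the labels: App fell by 1.78 on the log2 scale in cTKO hippocampus (SE 0.0613) and by 2.10 in cTKO neocortex (SE 0.0710), and Aplp1 and Aplp2 were also lower in every cTKO library than in any control library of the same region. The libraries stood apart in 2 cases. Markers of embryonic blood and axial tissue summed to 187 CPM in cTKO hippocampus library 4 and to 295 CPM in cTKO neocortex library 5, against at most 1.31 CPM in any other library. Results that move without these libraries are given with and without them. Labels did not tie libraries to mice, while the study's methods give 5 mice of each genotype for both regions, so p-values measure the spread between libraries. RNA was extracted with a different kit for each region, so region and kit cannot be told apart. In bulk tissue, fewer cells of a type and less RNA per cell cannot be told apart either.

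Penk was the only opioid gene called between genotypes by edgeR's quasi-likelihood test on all libraries of a region, and it rose in the hippocampus. Its gene lies on chromosome 4 from 4133531 to 4138819. In control hippocampus libraries 1 to 5 it was at 29.9, 35.4, 31.2, 33.4 and 39.3 CPM. In cTKO hippocampus libraries 1 to 5 it was at 166, 181, 170.2, 279 and 112 CPM. The lowest cTKO library was thus well above the highest control library, and the cTKO libraries were also more widely spread. The means were 33.8 ± 3.68 and 182 ± 60.8 CPM (SD, n = 5 each), a log2 fold change of 2.43 (SE 0.197, 5.40-fold), which passed edgeR's quasi-likelihood test over 13702 genes (FDR 4.59e-05). The exact permutation test of log2 CPM gave p = 0.00794, two-sided, the smallest value that 5 libraries against 5 allow. Of all genes tested in the hippocampus, 0.489% passed the FDR of 0.05 and 3.01% had groups that did not overlap. Without library 4, which had the highest Penk level and the embryonic markers, the log2 fold change was 2.21 (FDR 4.98e-06).

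In the neocortex Penk was already high in controls, and no change passed the test. Control neocortex libraries 1 to 5 were at 142, 183, 153, 176 and 111 CPM, and cTKO neocortex libraries 1 to 5 at 159, 291, 269, 202 and 169 CPM. Libraries 2, 3 and 4 of the cTKO group were above every control, and libraries 1 and 5 lay within the control range. The means were 153 ± 28.8 and 218 ± 59.3 CPM, a log2 fold change of 0.52 (SE 0.171, unadjusted p = 0.00888, FDR 0.297 in edgeR; exact permutation p = 0.0556). The background in the neocortex was lower than in the hippocampus: 0.188% of 13843 genes passed the FDR and 2.39% had groups that did not overlap. None of the 7 opioid genes was among the called genes there by edgeR's quasi-likelihood test, and 3 of them (Penk, Pdyn and Oprd1) had an unadjusted p under 0.05, as did 10.4% of all genes. In the hippocampus 4 of the 7 (Penk, Pdyn, Pnoc and Oprd1) did, against 12% of all genes. In the neocortex DESeq2 also called 0 of the 7.

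The genotype difference of Penk differed between the regions. In the fit of all 20 libraries, the hippocampal difference exceeded the neocortical one by 1.91 on the log2 scale (SE 0.282, edgeR FDR 0.00444). It stood 3rd by p among 14192 genes, of which 8, or 0.0564%, passed the FDR. In the same fit, Penk was lower in control hippocampus than in control neocortex by a log2 fold change of -2.17 (SE 0.208, edgeR FDR 2.13e-08). In cTKO mice the regional difference was -0.26 (SE 0.195, edgeR FDR 0.286), and the ranges overlapped, at 112 to 279 CPM in the hippocampus and 159 to 291 CPM in the neocortex. The 4 groups therefore ordered as cTKO neocortex, cTKO hippocampus, control neocortex and control hippocampus. Neighbouring ranges among the first 3 overlapped, and control hippocampus lay below all of them.

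**Figure D1:**
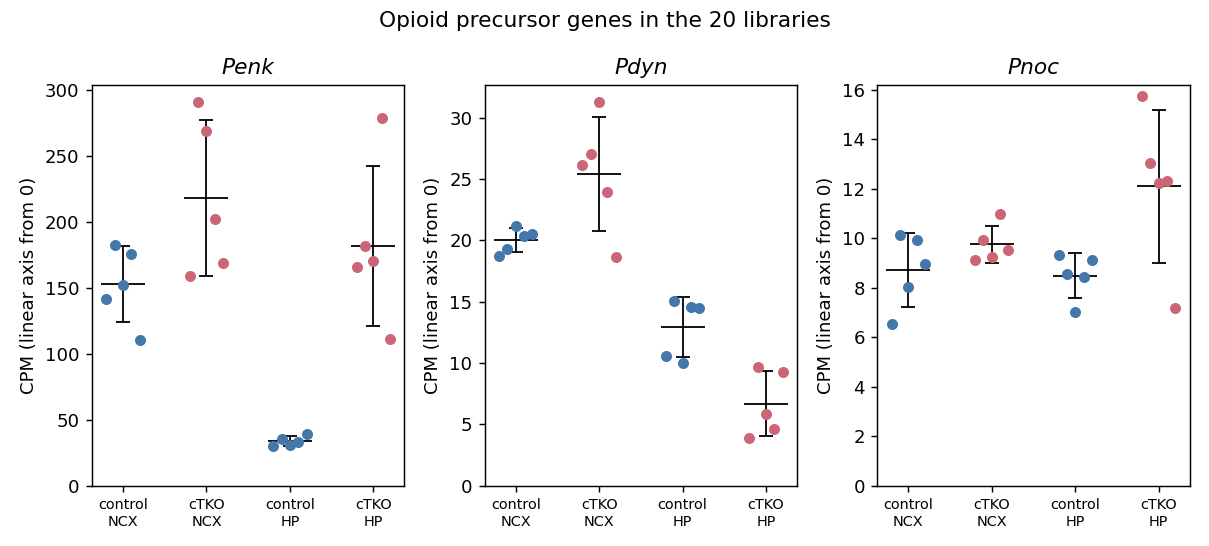
Level of Penk, Pdyn and Pnoc (CPM, linear axis from 0) in the 20 libraries, by genotype and region (NCX, neocortex; HP, hippocampus; points, libraries; horizontal bars and whiskers, mean ± SD, n = 5). Penk in cTKO hippocampus sits between 112 and 279 CPM, above all control hippocampus libraries, while Pdyn in cTKO hippocampus sits between 3.90 and 9.67 CPM, below all of them.

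Pdyn was lower in cTKO hippocampus in every library, but the adjusted test did not call it. The gene lies on chromosome 2 from 129686565 to 129699844. Control hippocampus libraries 1 to 5 were at 10.6, 15.03, 10.03, 14.6 and 14.5 CPM. The cTKO hippocampus libraries 1 to 5 were at 3.90, 9.67, 5.89, 4.64 and 9.25 CPM. The groups did not overlap, but the gap between them was narrow, 9.67 against 10.03 CPM. The log2 fold change was -0.95 (SE 0.239), with an unadjusted p of 0.00166, an edgeR FDR of 0.122 and an exact permutation p of 0.00794. With DESeq2's Wald test on the same genes the adjusted p was 0.00776, so whether Pdyn counts as changed depends on the test. The summed level of 6 dentate granule cell markers, the cells best known for dynorphin, ran from 349 to 528 CPM in control and from 434 to 601 CPM in cTKO hippocampus, with 0 of the 6 called. Its members differed in sign, and 3 had an unadjusted p under 0.05: Tdo2 at -1.39 (FDR 0.165), Dsp at -0.83 (FDR 0.0861) and C1ql2 at 0.77 (FDR 0.0861, and 0.0144 without cTKO library 3) on the log2 scale. Their part in the Pdyn values was not tested.

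In the neocortex Pdyn had the opposite sign. Control neocortex libraries 1 to 5 were at 18.7, 19.3, 21.2, 20.3 and 20.5 CPM, with little spread. The cTKO neocortex libraries 1 to 5 were at 26.2, 27.0, 31.3, 23.9 and 18.6 CPM. Libraries 1 to 4 of the cTKO group were above every control and library 5, which held the embryonic markers, was below every control. The log2 fold change was 0.36 (SE 0.112, edgeR FDR 0.266, exact permutation p = 0.0476), and without library 5 it was 0.44 with an FDR of 0.0308. The regional test of the genotype difference gave -1.30 (SE 0.275, unadjusted p = 0.000111, edgeR FDR 0.0929), 17th by p among all genes and past the threshold with DESeq2 (adjusted p = 0.00287). In control mice Pdyn was lower in the hippocampus than in the neocortex by a log2 fold change of -0.63 (SE 0.193, edgeR FDR 0.00976), and in cTKO mice by -1.93 (SE 0.200, edgeR FDR 7.41e-08).

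Pnoc had the smallest genotype differences of the precursors. Its gene lies on chromosome 14 from 65400673 to 65425472. In the hippocampus, control libraries 1 to 5 were at 9.35, 8.56, 7.004, 8.44 and 9.12 CPM and cTKO libraries 1 to 5 at 15.7, 13.1, 12.2, 12.3 and 7.17 CPM. The first 4 cTKO libraries were above every control and library 5 fell near the bottom of the control range. The log2 fold change was 0.52 (SE 0.173, edgeR FDR 0.249, exact permutation p = 0.0397), and without library 5 it was 0.66 with an FDR of 0.0219. Summed over 8 interneuron markers, the cells in which Pnoc is mostly found, the level ran from 779 to 979 CPM in control and from 860 to 1083 CPM in cTKO hippocampus, with 0 of the 8 called. Their part in the Pnoc values was not tested.

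In the neocortex Pnoc was at 6.52, 10.1, 8.02, 9.93 and 8.96 CPM in control libraries 1 to 5 and at 9.12, 9.93, 9.25, 10.97 and 9.55 CPM in cTKO libraries 1 to 5. These ranges overlapped over most of their length, and the log2 fold change was 0.18 (SE 0.128, edgeR FDR 0.683). Between the regions Pnoc differed by -0.03 in controls (SE 0.159, edgeR FDR 0.877) and by 0.31 in cTKO mice (SE 0.155, edgeR FDR 0.0990) on the log2 scale. The 4 group means of Pnoc lay between 8.50 and 12.1 CPM, the narrowest span of the precursors in fold terms.

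**Figure D2:**
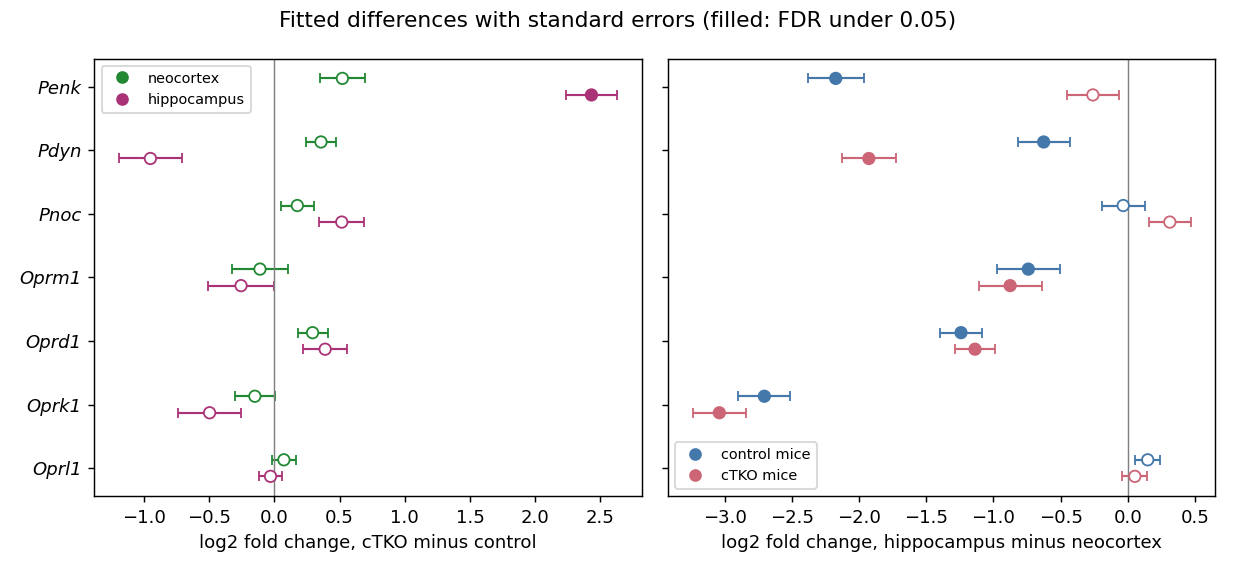
Fitted log2 fold changes with standard errors for the 7 opioid genes: cTKO minus control in each region (left) and hippocampus minus neocortex in each genotype (right). Filled symbols passed an FDR of 0.05 over all genes, and Penk in the hippocampus, at 2.43, is the only filled symbol on the left.

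Of the receptors, none changed with genotype in either region at an adjusted p of 0.05, by edgeR or by DESeq2. Oprd1 alone had an unadjusted p under 0.05 in edgeR's quasi-likelihood test. This delta receptor had the higher mean in cTKO mice in both regions. Oprd1 lies on chromosome 4 from 132110726 to 132144486. In the hippocampus it was at 11.9, 8.95, 11.4, 10.2 and 14.6 CPM in control libraries 1 to 5 and at 20.7, 11.4, 15.4, 11.97 and 14.9 CPM in cTKO libraries 1 to 5. In the neocortex it was at 32.0, 25.3, 23.7, 28.1 and 25.2 CPM in control libraries and at 40.2, 35.1, 32.2, 30.9 and 25.3 CPM in cTKO libraries. The groups overlapped in both regions. Control libraries 1 and 5 in the hippocampus, and 1, 2 and 4 in the neocortex, were above the lowest cTKO library of the region. The log2 fold changes were 0.39 in the hippocampus (SE 0.168, edgeR FDR 0.380) and 0.29 in the neocortex (SE 0.116, edgeR FDR 0.394), and they differed by only 0.10 (SE 0.215).

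Oprk1, the kappa receptor on which dynorphins act, was near the lower limit of useful depth in the hippocampus. It lies on chromosome 1 from 5588466 to 5606131. The hippocampal libraries held 28 to 34 reads in controls and 15 to 36 in cTKO mice. Control libraries 1 to 5 were at 1.41, 1.28, 1.49, 1.63 and 1.52 CPM, and cTKO libraries 1 to 5 at 1.19, 0.697, 1.03, 0.71 and 1.53 CPM. Libraries 1 to 4 of the cTKO group were below every control and library 5 was within the control range. The log2 fold change was -0.50 (SE 0.241, edgeR FDR 0.442, exact permutation p = 0.0476). In the neocortex Oprk1 ran from 9.10 to 9.93 CPM in controls and from 5.44 to 10.8 CPM in cTKO mice. The log2 fold change was -0.15 (SE 0.156, edgeR FDR 0.797).

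Oprl1, the nociceptin receptor, had the smallest genotype differences of the 7 genes. It lies on chromosome 2 from 181715016 to 181720985. Its group means were 37.9 ± 2.89 CPM in control and 37.0 ± 4.64 CPM in cTKO hippocampus, and 34.2 ± 2.25 CPM in control and 35.7 ± 4.65 CPM in cTKO neocortex (SD, n = 5 each). The log2 fold changes with genotype were -0.03 in the hippocampus (SE 0.0908) and 0.07 in the neocortex (SE 0.0896). Between the regions it differed by 0.15 in controls (SE 0.0930, edgeR FDR 0.191) and by 0.05 in cTKO mice (SE 0.0924, edgeR FDR 0.664).

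Oprm1, the mu receptor and the main target of morphine, was detected at low level throughout. It lies on chromosome 10 from 6758506 to 7038198 and overlaps Ipcef1 on the opposite strand. Whether counting used strand is not given in the sources used here, so reads of the pair may not be told apart. In the hippocampus it was at 1.34 to 2.36 CPM in controls and at 0.958 to 2.10 CPM in cTKO mice, from 22 to 51 reads per library. The log2 fold change was -0.26 (SE 0.250, edgeR FDR 0.759). In the neocortex the ranges were 2.44 to 3.68 CPM in controls and 1.62 to 3.33 CPM in cTKO mice, with a log2 fold change of -0.11 (SE 0.215, edgeR FDR 0.909).

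**Figure D3:**
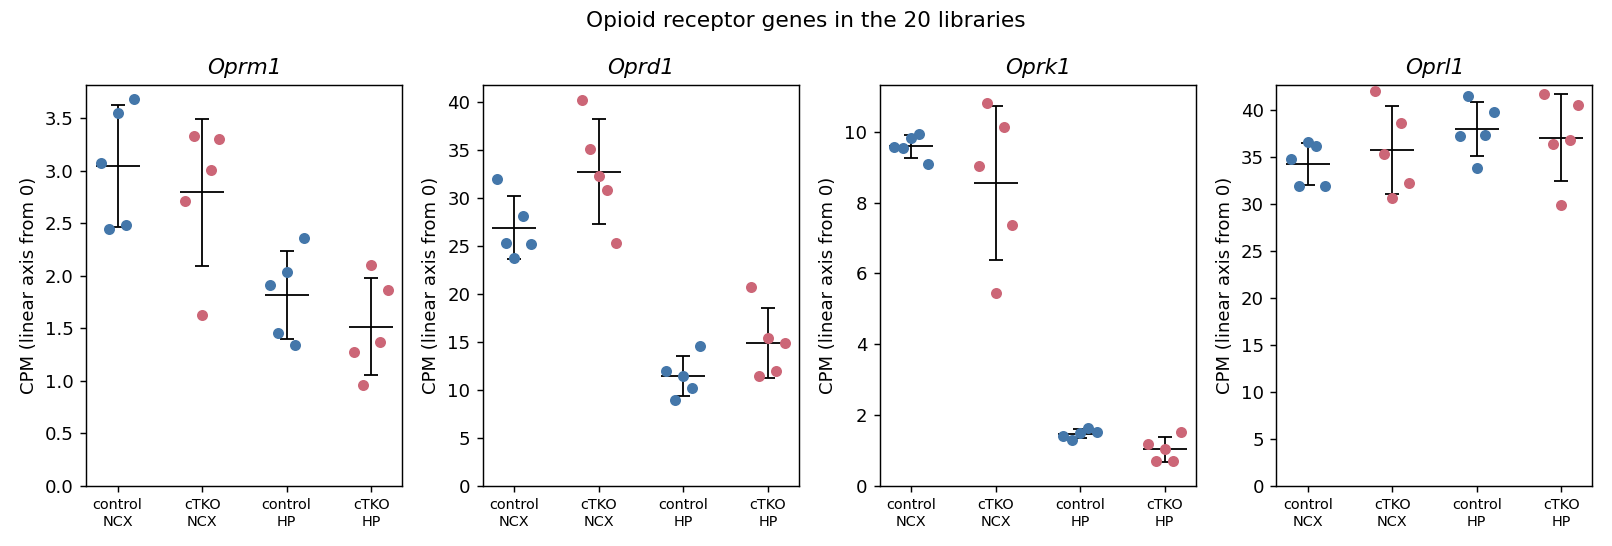
Level of the receptors Oprm1, Oprd1, Oprk1 and Oprl1 (CPM, linear axis from 0) in the 20 libraries, by genotype and region (NCX, neocortex; HP, hippocampus; points, libraries; horizontal bars and whiskers, mean ± SD, n = 5). Oprk1 averages 9.59 CPM in control neocortex and 1.47 CPM in control hippocampus, whereas Oprl1 stays between 29.8 and 42.0 CPM in every library.

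More opioid genes were called between the regions than between the genotypes. In control mice 5 of the 7 were called, all lower in the hippocampus, where 51.1% of all genes were called in either direction and 24.8% were lower. Beside Penk and Pdyn these were Oprk1, with a log2 fold change of -2.71 (SE 0.193, edgeR FDR 2.36e-10), Oprd1 with -1.24 (SE 0.155, edgeR FDR 9.92e-07) and Oprm1 with -0.74 (SE 0.234, edgeR FDR 0.0115). The groups did not overlap for the same 5 genes, against 43.5% of all genes. In cTKO mice 4 were called, again all lower, against 49.6% of all genes in either direction and 23.8% lower. Penk was the gene no longer called, and the other values were -3.04 for Oprk1 (SE 0.198), -1.14 for Oprd1 (SE 0.152) and -0.88 for Oprm1 (SE 0.235, edgeR FDR 0.00378). Of these 4, Pdyn, Oprd1 and Oprk1 had groups that did not overlap, against 28.5% of all genes, while Oprm1 overlapped. The median over the 7 genes was -0.74 in controls and -0.88 in cTKO mice, where all genes had medians of 0.02 and 0.01.

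Levels of different genes were compared per kilobase (kb) of exon, since longer transcripts give more reads. In control hippocampus Penk stood at 20.7 ± 2.25 CPM per kb, Pdyn at 4.48 ± 0.843 and Pnoc at 3.94 ± 0.424 (SD, n = 5). The ranges of Pdyn and Pnoc overlapped there. Summed over the precursors, the level was 29.1 ± 3.13 CPM per kb in control and 119 ± 37.3 in cTKO hippocampus, and 104 ± 17.9 in control and 147 ± 37.4 in cTKO neocortex. Penk made up 71.1% ± 1.94 of this sum in control hippocampus and 92.9% ± 1.78 in cTKO hippocampus, close to its share in control neocortex of 89.3% ± 2.01 and in cTKO neocortex of 90.6% ± 1.76. The share of Pdyn was 15.3% ± 1.69 in control hippocampus and 2.20% ± 1.36 in cTKO hippocampus, and the ranges of 13.5% to 17.2% and 0.902% to 4.28% did not overlap. In the neocortex the share of Pdyn was 6.82% ± 1.37 in controls and 6.16% ± 1.23 in cTKO mice. The shares add to 100 in each library, so a higher Penk share lowers the others.

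Among the receptors, Oprl1 and Oprd1 together held most of the summed receptor level in each group. Oprl1 held 75.8% ± 3.61 in control and 71.3% ± 4.79 in cTKO hippocampus, against 53.0% ± 2.55 in control and 50.3% ± 2.67 in cTKO neocortex, and its ranges in the regions did not overlap in either genotype. Oprd1 held 21.3% ± 3.24 and 26.5% ± 4.45 in the hippocampus and 38.7% ± 2.94 and 42.9% ± 3.51 in the neocortex. Oprk1 held 6.10% ± 0.320 in control neocortex and 1.21% ± 0.147 in control hippocampus, and Oprm1 held between 1.38% and 2.21% in the group means. Per kb, Oprk1 was above Oprm1 in control neocortex (1.05 ± 0.0355 against 0.379 ± 0.0721 CPM per kb), while their ranges overlapped in control hippocampus, at 0.140 to 0.178 and 0.167 to 0.293 CPM per kb. The summed receptor level was 13.3 ± 0.908 CPM per kb in control and 13.9 ± 1.82 in cTKO hippocampus, and 17.2 ± 1.10 in control and 18.9 ± 2.54 in cTKO neocortex.

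**Figure D4:**
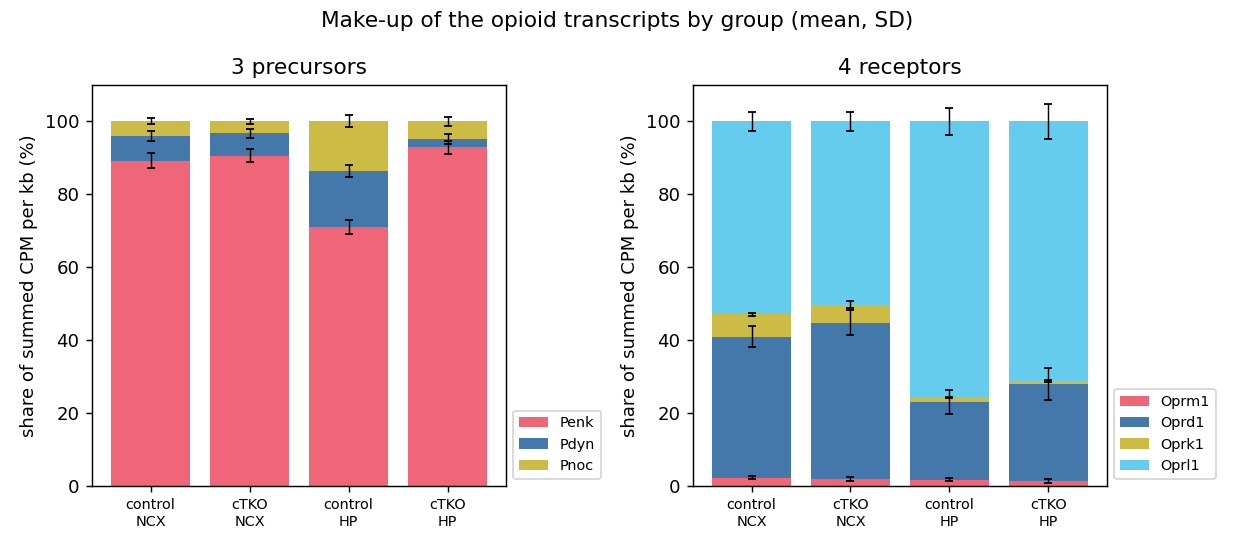
Share of each gene (%) in the summed level per kb of the 3 precursors (left) and the 4 receptors (right), by group (NCX, neocortex; HP, hippocampus; mean over 5 libraries, whiskers 1 SD of the segment they top). The Penk segment grows from 71.1% in control to 92.9% in cTKO hippocampus, and the Oprl1 segment is 75.8% in control hippocampus and 53.0% in control neocortex.

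The spread between libraries was wider in cTKO mice. The coefficient of variation of Penk was 10.9% in control and 33.5% in cTKO hippocampus, and that of Oprk1 was 8.83% and 33.9%. All 7 genes had a larger SD of log2 CPM in cTKO than in control hippocampus, and 6 of the 7 in the neocortex, Pnoc being the exception. The same held for 74.2% of all genes tested in the hippocampus and for 70.5% in the neocortex, so the wider spread was not particular to the opioid genes.

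Genes of peptide processing, breakdown and signalling were read beside the opioid genes. Of 13 genes that cut, trim or package precursors, 1 was higher in cTKO hippocampus and 0 were lower: Pcsk5, a proprotein convertase, rose from 16.6 ± 1.24 to 26.03 ± 4.52 CPM, a log2 fold change of 0.65 (SE 0.114, edgeR FDR 0.0257). This call was lost without any single control library or without cTKO library 1 or 2 (highest FDR 0.0959). Of the 13, 11 had a positive log2 fold change and 4 had an unadjusted p under 0.05, where 12% of all genes did. Beside Pcsk5 these were the granins Scg2 (0.42, FDR 0.129), Chga (0.46, FDR 0.257) and Chgb (0.32, FDR 0.0927), which package peptides into dense-core vesicles. The enzymes best known for cutting proenkephalin were not called, with log2 fold changes of 0.32 for Pcsk1 (SE 0.324, from -0.19 to 0.48 when single libraries were left out), 0.12 for Pcsk2 (SE 0.0630) and 0.0024 for the carboxypeptidase Cpe (SE 0.0893). The median of the 13 genes was 0.13, against 0.0049 for all genes. Of 8 peptidases that degrade enkephalin, 0 were called by edgeR and 1 had an unadjusted p under 0.05, with a median of -0.06. That 1 was Ace, at -0.81 (SE 0.359, edgeR FDR 0.395), which ran from 12.4 to 73.2 CPM in control libraries. Mme, or neprilysin, was at -0.38 (SE 0.225, edgeR FDR 0.551) and, without cTKO library 5, at -0.64 (SE 0.166, edgeR FDR 0.0972).

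Downstream of the receptors, 26 of 27 listed genes for G proteins, channels, cyclases, arrestins, receptor kinases and RGS proteins were tested, and 1 was called. Rgs4, which speeds up the shut-off of inhibitory G proteins, rose from 183 ± 13.9 to 306 ± 70.4 CPM in cTKO hippocampus, a log2 fold change of 0.75 (SE 0.129, edgeR FDR 0.0236). The call was lost without any single control library or without cTKO library 2 (highest FDR 0.0888). Its change in the neocortex was 0.03 (SE 0.0781), and the test between regions did not pass (edgeR FDR 0.163). In the hippocampus the median of the list was 0.02, and 3 genes had an unadjusted edgeR p under 0.05, where 12% of all genes did. Beside Rgs4 these were Adcy1 (-0.51, FDR 0.136) and Grk5 (-0.30, FDR 0.349), both lower in cTKO mice. Of 10 transcriptional regulators tied to Penk or Pdyn, 1 was called: Kcnip3, which encodes the repressor DREAM that binds the Pdyn gene, rose from 96.1 ± 11.1 to 146 ± 24.6 CPM, a log2 fold change of 0.61 (SE 0.113, edgeR FDR 0.0356). That call was kept only without cTKO library 4 or without cTKO library 5 (highest FDR in the other omissions 0.102). Fos and Fosb had log2 fold changes of -0.57 (SE 0.331) and 0.68 (SE 0.601, from -0.60 to 0.92 when single libraries were left out) and were not called, and the median of the list was 0.09. In the neocortex edgeR called 0 genes of these lists, with 4, 1, 4 and 1 at an unadjusted p under 0.05 in the order given, and their medians lay between -0.07 and 0.06. Pomc, the remaining opioid precursor gene, had group means of 0.587 to 0.959 CPM and was below the filter, while Ogfr and Ogfrl1 were tested and not called in either region.

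Markers of the striatum, where enkephalin is abundant, were set beside Penk, since striatal tissue can be carried along in a forebrain dissection. In the hippocampus the 12 markers summed to 193 to 219 CPM in controls and 186 to 268 CPM in cTKO mice, and 9 were tested. Only Drd1, the D1 dopamine receptor, was called, rising from 4.77 ± 0.277 to 18.0 ± 3.89 CPM (log2 fold change 1.92, SE 0.149, edgeR FDR 3.31e-05). Markers of the enkephalin-bearing striatal neurons were low in the hippocampus and were not called, with means of 1.37 and 1.41 CPM for Adora2a and of 2.38 and 2.84 CPM for Drd2 in control and cTKO mice. With the summed level of the other 11 markers as a covariate, a fit chosen after the data had been seen, the log2 fold change of Penk was 2.42 (edgeR FDR 6.91e-05). The part of striatal tissue in the Penk values was not tested. Isl1, a marker of striatal projection neurons, had 0 counts in control library 5 and in cTKO library 1. Choroid plexus markers summed to 75.5 to 2684 CPM in control and to 112 to 598 CPM in cTKO hippocampus. With their sum as a covariate, also chosen after the data had been seen, the log2 fold change of Penk was 2.32 (edgeR FDR 0.000396). Of the other cell-type markers, Lamp5 fell by 0.52 (SE 0.0856, edgeR FDR 0.0204) in cTKO hippocampus, and no other listed marker was called there. The Lamp5 call was lost without control library 1, 4 or 5 or cTKO library 2 (highest FDR 0.0667).

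Astrocyte markers were also set beside Penk. The 4 markers summed to 950 to 1257 CPM in control hippocampus and to 2108, 1149, 1395, 3974 and 1018 CPM in cTKO hippocampus libraries 1 to 5. Among the cTKO libraries, library 4, with the highest sum, had the highest Penk level, and library 5, with the lowest sum, had the lowest. In between the order differed: library 1 had a sum of 2108 CPM with Penk at 166 CPM. Library 2 had a sum of 1149 CPM, within the control range, with Penk at 181 CPM. None of the 4 was called by edgeR, and 1 had an unadjusted p under 0.05: Gfap, the filament protein of reactive astrocytes, had means of 427 and 1268 CPM (log2 fold change 1.58, SE 0.438, unadjusted p = 0.00332, FDR 0.163). Without cTKO library 4, which held the embryonic markers, the log2 fold change of Gfap was 0.93 (SE 0.277, edgeR FDR 0.195). Across the 4 markers the median log2 fold change was 0.22, from -0.16 to 1.58 for Gfap, so their sum does not stand for astrocyte content alone. With the summed astrocyte level as a covariate, a fit also chosen after the data had been seen, the log2 fold change of Penk in the hippocampus was 2.04 (edgeR FDR 1.44e-05) and that of Pdyn was -0.65 (edgeR FDR 0.432). The part of astrocytes in these values was not tested.

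In the neocortex, without Drd1, the striatal markers summed to 501 to 706 CPM in controls and to 552 to 954 CPM in cTKO mice. The highest Penk levels, 291 and 269 CPM in cTKO libraries 2 and 3, stood in the libraries with the highest marker sums, 954 and 792 CPM. The lowest, 111 CPM in control library 5, stood in the library with the lowest sum, 501 CPM. In between the order was looser: cTKO library 4 had Penk at 202 CPM with a sum of 552 CPM, and control library 4 had Penk at 176 CPM with a sum of 706 CPM. A fit with the marker sum as a covariate was again chosen after the data had been seen. It gave a neocortical log2 fold change of Penk of 0.28 (edgeR FDR 0.487), against 0.52 without the covariate. The part of striatal tissue in these values was not tested.

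**Figure D5:**
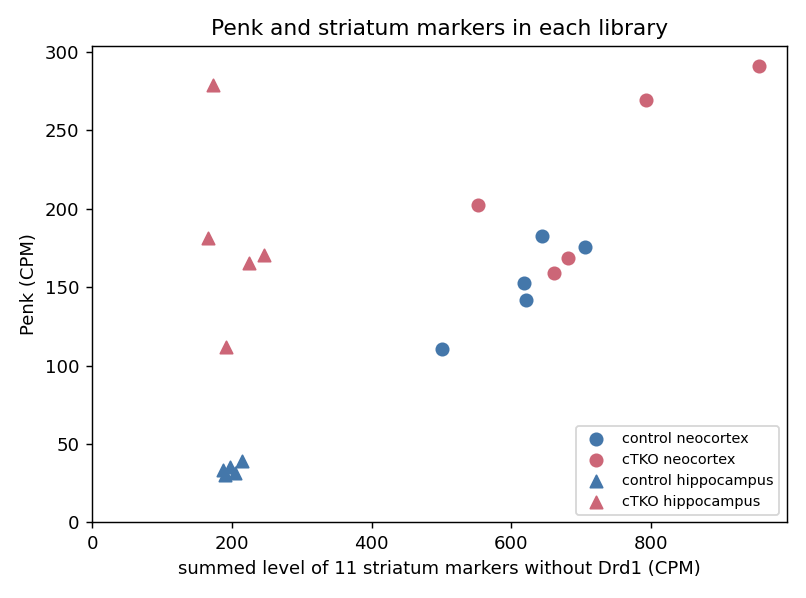
Penk level (CPM) against the summed level of 11 striatum markers (CPM, Drd1 left out) in each of the 20 libraries (circles, neocortex; triangles, hippocampus; blue, control; red, cTKO). The cTKO hippocampus libraries lie at 112 to 279 CPM of Penk with marker sums of 166 to 245 CPM. Control hippocampus libraries lie at 29.9 to 39.3 CPM of Penk with marker sums of 188 to 214 CPM, inside the wider cTKO range. Neocortical Penk is highest in the 2 libraries with the highest marker sums.

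Among 13469 genes tested in both regions, the profile most like that of Penk was that of Drd1. Each profile was the log2 CPM in the 20 libraries minus the control mean of the region, and likeness was the root mean square difference between profiles. This was 0.37 for Drd1, 0.52 for Rprm, 0.59 for Ppl and 0.63 for Gpnmb, where the median gene was 1.26 away. A flat profile would be 1.25 away, the root mean square of the Penk profile itself. These 4 genes were called higher in cTKO hippocampus, with log2 fold changes from 1.73 for Gpnmb (SE 0.270, edgeR FDR 0.0153) to 1.92 for Drd1, and none of them was called in the neocortex (edgeR FDR 0.108 to 0.972). They were chosen for likeness to Penk, which is itself high in cTKO hippocampus, so this pattern follows from the choice and is no separate result. The hippocampal call of Gpnmb was lost without control library 1, 2 or 4 (highest FDR 0.0658).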

How the data were processed

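Poly-A RNA libraries were read as single ends. Per the labels and the study's methods, the authors aligned reads to mm10 with STAR 2.5.4a and deposited raw counts per gene symbol from HTSeq. Its version, annotation and strand setting are not given in the sources used here. No values were normalized before deposit, and no 2 libraries were identical. Genotypes were compared within each region with edgeR 4.0.16 (TMM, quasi-likelihood test, Benjamini-Hochberg FDR under 0.05) in R 4.3.3, on genes above 1 CPM in at least 5 of 10 libraries. Regions and the difference between regions were tested in 1 fit of all 20 libraries (above 1 CPM in at least 5), which treats them as independent. Single genes were also tested by exact two-sided permutation of log2 CPM (prior count 2) over 252 assignments. CPM values use TMM over all 20 libraries. Exon lengths, as the union over transcripts, and codons came from GENCODE M21. Alternatives were DESeq2 1.42.0, other tests, scalings, filters, blocks and left-out libraries. Scripts were tested on simulated data. Named genes were the 7 members, called genes of the pathway and marker lists, the targeted genes and the 5 profiles nearest to Penk; some items are not reported here. Other listed genes given with values were named after their values were seen. Members and lists were chosen with earlier results of these data known. Same-numbered libraries of the regions correlated at 0.129 to 0.334 in controls and at -0.0712 to 0.396 in cTKO mice. All 5 control pairs were above 0.1 and 3 of the 5 cTKO pairs, so the numbers may mark the same mouse in controls, and the pairing is not settled in cTKO mice; the fit without it is given, and the block called the same number of opioid genes for the regions and for the difference between them. With 12169474 to 25331954 counts per library, Oprk1 and Oprm1 in the hippocampus rest on 15 to 51 reads per library.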

Additional observations from a re-analysis of the deposited data

Results flagged for a closer look

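The genotype difference of Penk was larger in the hippocampus than in the neocortex by 1.91 on the log2 scale (SE 0.282, edgeR FDR 0.00444), and it was tested as an interaction over all 20 libraries. It passed the threshold in 27 of 27 alternatives, with values from 1.62 to 2.05.

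Oprm1 in cTKO neocortex library 3, at 1.62 CPM, lay far from the other libraries of its group, which were at 2.71 to 3.33 CPM. It was the only such library among 28 groups of 5 checked, and chance gives about 1 in 20.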

How the results depend on the processing

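Penk in the hippocampus stayed called in 22 of 22 alternatives (log2 fold change 2.04 to 2.57), and in the neocortex it was called in 0 of 22 (0.28 to 0.61). The number of opioid genes called in the hippocampus was 2 in place of 1 with edgeR's exact test, the likelihood ratio test, DESeq2, the replicate block and the fit of all 20 libraries. Pdyn was the gene added in each, with adjusted p of 0.0139, 0.0135, 0.00776, 0.0487 and 0.0162, and over 22 alternatives its FDR ran from 0.00776 to 0.432. Leaving out single libraries gave 1 to 2, with Pnoc added without cTKO hippocampus library 5 (FDR 0.0219). In the neocortex the number was 1, through Pdyn, without cTKO library 5, which is also the fit with the libraries that stand apart left out, and single omissions gave 0 to 1. The difference between regions called 2 with the likelihood ratio test and DESeq2, with Pdyn at adjusted p of 0.00441 and 0.00287, and 1 to 2 with single omissions: without cTKO hippocampus library 2 Pdyn had an FDR of 0.0284 and without library 5 of 0.0302. Beyond fewer samples, the cause was not tested.

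Oprl1 in the hippocampus changed sign in 2 omissions, between -0.0773 and 0.0395, and Oprm1 in the neocortex in 1, between -0.185 and 0.0295, the latter without cTKO library 3. Blocking by library number changed no other call, with 0 opioid genes called in the neocortex, 1 between regions, and 5 and 4 for the regions in control and cTKO mice. Oprk1 and Oprm1 in the hippocampus rest on few reads.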
